A study of Mus musculus with 12 samples.

Results

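Bright and dim PDGFRa-GFP fibroblasts of sham-operated mouse lungs are compared here. The arrays were chosen by their labels alone: 2 arrays of bright cells after sham operation (bright SHAM) and 2 of dim cells after sham operation (dim SHAM), 4 of the 12 in the series. Lungs were taken on day 5 after surgery, digested with dispase and sorted by flow cytometry for the GFP label. Each sample held 2000 cells, whose RNA went through 25 cycles of amplification before an Affymetrix mouse array. A sham operation gives the surgical trauma and leaves the lung whole. The other 8 arrays hold the same bright and dim gates after partial pneumonectomy (PNX), which is followed by regrowth of the remaining lung, and after the same operation where a dominant-negative FGFR2 was expressed (PNX-dnFGFR). All animals carried the PDGFRa-GFP label. The sources used here do not give the strain, the age, what drives the receptor, or whether a replicate, which the labels call biological, is 1 animal or a pool. Nor do they say whether bright and dim cells of a replicate number came from the same lungs. The p-values therefore measure the spread between these samples, which may be technical in part.

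PDGF receptor alpha is the receptor by which platelet-derived growth factor A acts on lung mesenchyme, and it is needed for alveolar septa to form. A GFP label on its gene marks most interstitial fibroblasts of the mouse lung, and bright and dim label have been used to part contractile from lipid-storing cells. Alveolar fibroblasts lie in the septa, store lipid and retinoid and feed growth factors to the epithelium, whereas adventitial fibroblasts sheathe vessels and airways and are rich in collagen and proteoglycans. Hedgehog, Wnt, BMP, FGF and retinoid signals shape both kinds.

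The deposited values are log2 RMA signals, which are called levels below, and replicate 1 precedes replicate 2 wherever a pair of values is given. A gene was tested if its level passed a filter value of 5.101 log2 on at least 2 of the 12 arrays, that value being the median over the whole data, and 11073 genes did so. Each gene is represented by 1 probe set. Differences are bright minus dim, with a standard error (SE) and an adjusted p from limma, and a gene was called at an adjusted p below 0.05. Where levels lay below the filter value and raising them to it makes the fold over 1.5 times smaller, the difference is also given with raised levels, since signals that low can hold little but background. Of the genes on 35 lists of pathways, structures and cell types, 539 were tested. The lists were chosen with earlier results of these data known. Among all genes tested 11.5% were called higher in bright cells and 7.53% lower. Counts on a list that lie near those shares say little about its members.

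Pdgfra itself ran against the gate labels. Its level was 5.11 and 5.25 log2 on the arrays labelled bright, against 7.13 and 6.93 log2 on the arrays labelled dim. Both arrays labelled bright lay below both arrays labelled dim, and the difference was -1.85 log2 (± 0.17 SE, adjusted p = 9.9e-05), on the 1 probe set of the gene. The Pdgfra probe set was lower on the arrays labelled bright after PNX too, by a difference of -1.86 log2, and after PNX-dnFGFR, by -1.54 log2. Its relation to the protein or to the GFP signal was not tested, and the names bright and dim are used below as the labels give them. The promoter of Pdgfra, whose message opposes the label, is shown as RefSeq gives it on GRCm38.p6, at chr5:75152001-75152300 on the plus strand, from 250 bases before to 50 bases after the start. Promoters were searched on both strands for a TATA box, spelled TATAAA. They were also searched for the GC box that binds Sp1 family factors, spelled GGGCGG. The last motif was an E-box, which basic helix-loop-helix factors bind, spelled CAGCTG. Pdgfra held none of the 3 in these spellings, and other spellings were not searched.
Pdgfra promoter: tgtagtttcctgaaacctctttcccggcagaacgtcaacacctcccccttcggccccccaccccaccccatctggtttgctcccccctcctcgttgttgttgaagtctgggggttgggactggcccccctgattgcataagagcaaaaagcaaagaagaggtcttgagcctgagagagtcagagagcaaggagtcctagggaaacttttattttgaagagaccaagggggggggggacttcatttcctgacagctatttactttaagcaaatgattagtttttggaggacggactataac

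Some general fibroblast transcripts were high in both gates, but not all. Dcn was at 7.96 and 6.21 log2 on the dim arrays. Pdgfra, at 5.11 and 5.25 log2 on the bright arrays, lay near the filter value. Of 12 general fibroblast genes, all tested, 5 were higher in bright cells and 2 lower, and the rest did not pass. Col1a1, the main chain of type I collagen, had levels of 12.29 and 12.29 log2 on the bright arrays and 11.94 and 11.82 log2 on the dim arrays. Its difference of 0.41 log2 (± 0.12 SE, adjusted p = 0.047) lost its call without any 1 of the 4 arrays (adjusted p of 0.077 to 0.18), with no filter (adjusted p = 0.056) and in a fit of the 4 SHAM arrays alone (adjusted p = 0.15). Col3a1, the chain of type III collagen, showed levels between 12.03 and 12.34 log2 on all 4 arrays and did not pass, but the mean of its probe sets differed by 1.17 log2 and was called (adjusted p = 0.0035). The count of called fibroblast genes fell to 3 without bright replicate 1 and to 4 without bright replicate 2 or without dim replicate 2.

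The arrays also held RNA of other cells, and single arrays stood apart in it. Sftpc, the surfactant protein of type II cells, read 11.76 and 12.06 log2 on the bright arrays and 12.43 and 12.13 log2 on the dim arrays. Scgb1a1, the secretoglobin of club cells, was at 5.73 and 11.58 log2 on the bright arrays, against 7.3 and 6.88 log2 on the dim arrays. H2-Ab1, an MHC class II chain, was at 10.57 and 10.41 log2 on the bright arrays, against 11.16 and 8.32 log2 on the dim arrays. Bright replicate 2 thus stood out for a club cell transcript and dim replicate 2 for a low class II transcript (Scgb1a1 was chosen after its values were seen, as were Scgb3a2 of club cells and the class II chain Cd74, which are plotted with it). Of 17 epithelial markers tested, 1 was higher and 1 lower in bright cells, and their summed level ranged over 12.76 to 13.68 log2 on the bright and 12.97 to 13.63 log2 on the dim arrays. None of 23 macrophage and dendritic cell markers was called by limma, with 3 at an unadjusted p below 0.05, and their summed level was 12.50 to 12.78 log2 on the bright and 12.13 to 13.59 log2 on the dim arrays. Nor were 9 lymphocyte markers, with 5 at an unadjusted p below 0.05, or 5 erythrocyte and platelet markers, with 0. Fewer cells of a type and less RNA per cell cannot be told apart in such pools. Without dim replicate 1, though, 4 macrophage and dendritic cell markers were called higher, H2-Ab1 among them at a difference of 2.17 log2 (adjusted p = 0.01). Of the same markers 1 was called lower with a stricter filter at 6.762 log2, with further quantile normalization, with a trend of variance on level in the fit, or with raised levels, and 2 were in a fit of the 4 SHAM arrays alone. Without bright replicate 1 or dim replicate 2, 1 lymphocyte marker was called lower, and with further quantile normalization 3 were.

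**Figure D1:**
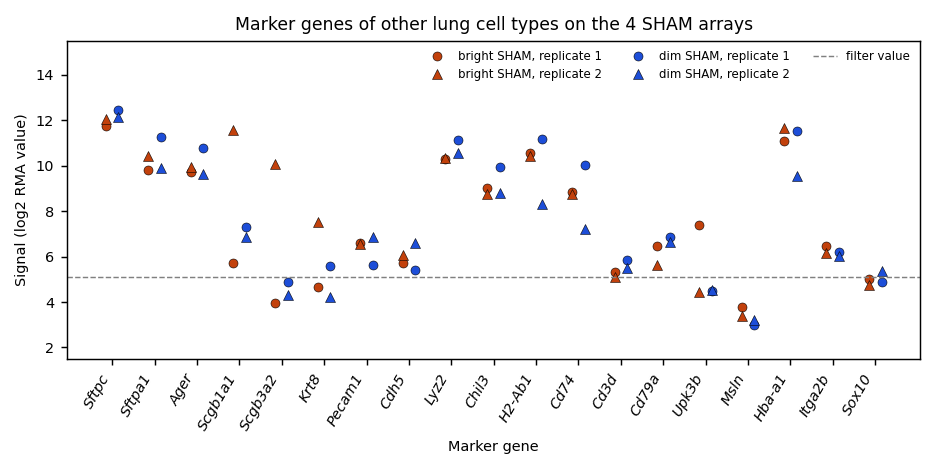
Levels (log2 RMA signal, vertical axis) of marker genes of other lung cell types (horizontal axis) on the 4 SHAM arrays. Orange symbols are bright and blue symbols dim, circles are replicate 1 and triangles replicate 2, and the dashed line is the filter value. Scgb1a1 and Scgb3a2 stand high on bright replicate 2 alone, and H2-Ab1 and Cd74 low on dim replicate 2 alone.

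Bright and dim cells differed in 2107 of 11073 genes, 19% of those tested. In bright cells 1273 were higher (11.5%) and 834 lower (7.53%). All called genes had levels that did not overlap between the gates, as did 59.5% of all genes tested. With a further quantile normalization 1060 genes were higher and 1106 lower, so the share of higher calls was 48.9% there and 60.4% in the deposited values. The count stood at 1249 without bright replicate 1, 1229 without bright replicate 2, 1584 without dim replicate 1 and 1313 without dim replicate 2. Calls of over 2-fold numbered 681 higher and 445 lower, and 566 and 397 once low levels were raised to the filter value. Over 8-fold, counted with raised levels, there were 65 higher genes and 14 lower ones. Pearson's r across genes, a description since genes are not replicates, was 0.963 between the bright arrays, 0.968 between the dim arrays and 0.865 to 0.873 between gates.

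The largest rise was that of Saa3, an acute-phase serum amyloid A protein. Its level was 11.69 and 10.79 log2 on the bright arrays, against 4.43 and 4.22 log2 on the dim arrays. Both dim arrays lay below the filter value and both bright arrays near the top of the scale. The difference was 6.92 log2 (± 0.97 SE, adjusted p = 0.0012), or 6.14 log2 with dim levels raised to the filter value, which is 70.5-fold. Rbp4, the carrier of retinol, was at 10.43 and 10.70 log2 in bright cells, against 4.50 and 4.66 log2 in dim cells. Its difference was 5.98 log2 (± 0.39 SE, adjusted p = 2.1e-05), or 5.46 log2 with raised levels. Entpd2, an ectoenzyme that splits extracellular ATP, was at 9.23 and 9.15 log2 in bright cells, against 4.09 and 3.82 log2 in dim cells. It had a difference of 5.23 log2 (± 0.15 SE, adjusted p = 1.6e-07), or 4.09 log2 with raised levels.

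Other large rises fell on a precursor of opioid peptides and on several secreted proteins. Penk, which encodes proenkephalin, had levels of 10.02 and 10.14 log2 in bright cells, against 3.79 and 4.09 log2 in dim cells. That is a difference of 6.14 log2 (± 0.56 SE, adjusted p = 0.00012), or 4.98 log2 with raised levels. Fndc1, a protein with fibronectin type III domains, read 10.89 and 10.85 log2 in bright cells, against 5.64 and 6.01 log2 in dim cells. Both gates of Fndc1 lay above the filter value, and the difference was 5.05 log2 (± 0.54 SE, adjusted p = 0.00025). Flrt2, a membrane protein that binds FGF receptors, differed by 4.50 log2 (± 0.45 SE, adjusted p = 0.00018), Cygb, a globin of fibroblasts, by 4.25 log2 (± 0.27 SE, adjusted p = 2.1e-05) and Spock2, a secreted proteoglycan, by 4.13 log2 (± 0.42 SE, adjusted p = 0.0002). Dim levels of these 3 genes lay between 5.11 and 6.25 log2, and bright levels between 9.53 and 9.94 log2.

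Among the falls, Slc7a10, a transporter of small neutral amino acids, was the largest. Its level was 5.54 and 5.45 log2 on the bright arrays, against 10.64 and 10.47 log2 on the dim arrays. The bright arrays were just above the filter value and the dim arrays far above it, and the difference was -5.06 log2 (± 0.17 SE, adjusted p = 5.3e-07), a 33.5-fold lower signal. Mapt, which encodes the microtubule protein tau, was at 6.04 and 6.11 log2 in bright cells, against 9.97 and 10.21 log2 in dim cells. All 4 probe sets of Mapt were lower in bright cells, and the one used differed by -4.02 log2 (± 0.18 SE, adjusted p = 3e-06). Fat3, an atypical cadherin, was at 4.37 and 5.21 log2 in bright cells, against 8.77 and 8.81 log2 in dim cells. Mme, the peptidase neprilysin, differed by -3.13 log2 (± 0.26 SE, adjusted p = 6.1e-05), and Gja5, which encodes a connexin, by -2.93 log2 (± 0.35 SE, adjusted p = 0.0005). Schip1, Cass4 and the glutamate transporter Slc1a2 were lower in bright cells by 3.08 to 3.46 on the log2 scale.

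**Figure D2:**
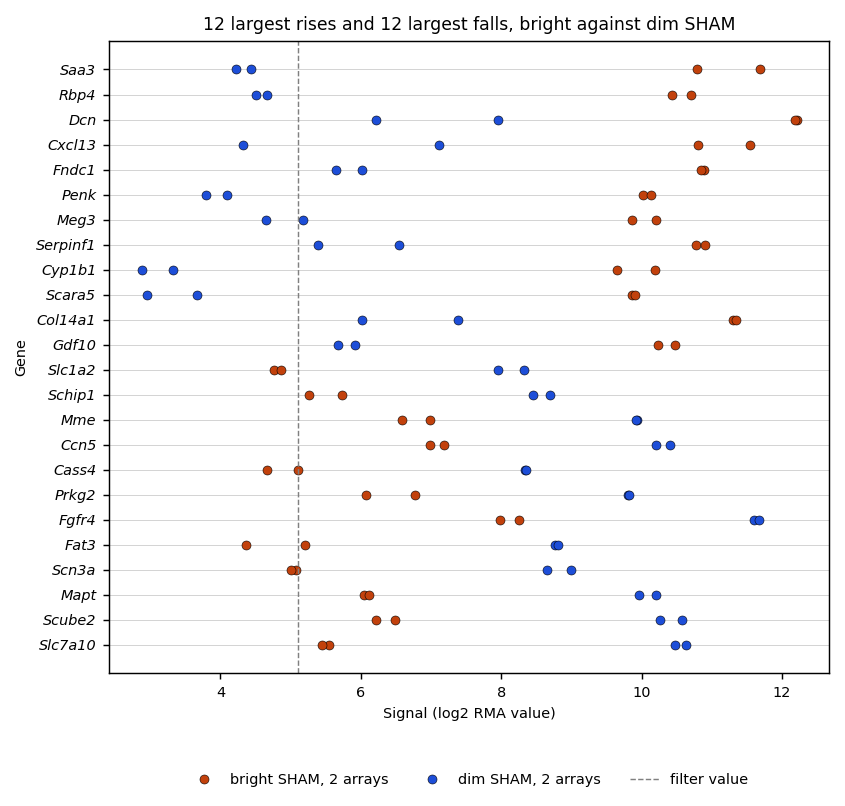
Levels (log2 RMA signal, horizontal axis) of the 12 largest rises, from Saa3 at the top, and the 12 largest falls, down to Slc7a10, on the 2 bright SHAM arrays (orange) and the 2 dim SHAM arrays (blue). The dashed line is the filter value. The genes were chosen among calls without overlap, so none shown has overlapping gates. Saa3, Rbp4, Penk, Cyp1b1 and Scara5 have both dim arrays left of the line.

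The promoters of the gene with the largest rise and of the gene with the largest fall are given for comparison, over the same window of GRCm38.p6 from RefSeq. Saa3 lies on the minus strand at chr7:46715627-46715926 and Slc7a10 on the plus strand at chr7:35186135-35186434. Capitals mark GC boxes, read on either strand. Saa3 held none of the 3 motifs in the spellings searched, and Slc7a10 held 2 GC boxes. Other spellings of a TATA box or an E-box were not searched. A GC box stood in 68.2% of 748 promoters of higher genes, in 64% of 497 promoters of lower genes and in 65% of 7064 promoters of all genes tested, counting genes with 1 promoter in the table. The TATA box stood in 8.96%, 7.85% and 7.46% of the same promoters, and the E-box in 15.4%, 18.1% and 15.1%. These matches describe letters in a window and nothing about a factor.
Saa3 promoter: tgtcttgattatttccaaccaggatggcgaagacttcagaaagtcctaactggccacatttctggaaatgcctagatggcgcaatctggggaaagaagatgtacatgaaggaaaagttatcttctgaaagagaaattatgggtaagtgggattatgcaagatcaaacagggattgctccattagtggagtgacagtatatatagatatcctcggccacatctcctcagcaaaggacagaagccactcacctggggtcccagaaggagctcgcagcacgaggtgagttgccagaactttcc
Slc7a10 promoter: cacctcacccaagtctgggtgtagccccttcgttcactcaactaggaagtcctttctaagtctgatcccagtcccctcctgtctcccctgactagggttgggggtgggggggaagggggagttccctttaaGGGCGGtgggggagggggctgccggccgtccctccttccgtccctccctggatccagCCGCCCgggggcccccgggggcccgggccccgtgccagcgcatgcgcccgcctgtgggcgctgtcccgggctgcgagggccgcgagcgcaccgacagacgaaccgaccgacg

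Genes known from adventitial fibroblasts were higher in bright cells. Of 19 tested, 16 were higher and 1 lower, against 11.5% and 7.53% of all genes, with a median difference of 2.24 log2, or 1.96 log2 with raised levels, beside 0.04 log2 for all genes. Dcn, a proteoglycan that binds collagen fibrils, was at 12.21 and 12.18 log2 in bright cells, against 7.96 and 6.21 log2 in dim cells. The dim arrays of Dcn lay apart from each other and still far under the bright ones (difference 5.11 log2 ± 0.85 SE, adjusted p = 0.0029). Serpinf1, a secreted inhibitor of vessel growth, was at 10.77 and 10.91 log2 in bright cells, against 6.55 and 5.39 log2 in dim cells (difference 4.87 log2 ± 0.33 SE, adjusted p = 2.4e-05). Scara5, a receptor for ferritin, was at 9.86 and 9.9 log2 in bright cells, against 3.66 and 2.95 log2 in dim cells. Its difference of 6.58 log2 (± 0.33 SE, adjusted p = 5e-06) was 4.78 log2 with raised levels and 4.33 log2 as the mean of its 2 probe sets. Lum, another collagen-binding proteoglycan, differed by 5.9 log2 (± 0.23 SE, adjusted p = 1.2e-06), or 3.34 log2 with raised levels. Cd34, a surface sialomucin of these cells, was at 10.15 and 10.15 log2 in bright cells, against 8.65 and 8.45 log2 in dim cells, a difference of 1.59 log2 (± 0.14 SE, adjusted p = 8.6e-05). Gsn, which encodes the actin-severing gelsolin, did not pass, with levels of 12.18 to 12.31 log2 on all 4 arrays.

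Genes known from alveolar fibroblasts went the other way. Of 16 tested, none was higher and 14 were lower in bright cells, against 11.5% and 7.53% of all genes. The median difference was -2.37 log2. Scube2, a secreted protein that helps release hedgehog ligands, was at 6.22 and 6.49 log2 in bright cells, against 10.57 and 10.26 log2 in dim cells. Fgfr4, an FGF receptor, was at 7.98 and 8.25 log2 in bright cells, against 11.60 and 11.67 log2 in dim cells. Tcf21, a transcription factor of lipid-storing fibroblasts, was at 8.13 and 8.27 log2 in bright cells, against 10.57 and 10.53 log2 in dim cells. In each of these 3 genes the gates were far apart and the replicates close, with differences of -4.06 log2 (± 0.25 SE, adjusted p = 1.9e-05) for Scube2, -3.52 log2 (± 0.26 SE, adjusted p = 3.6e-05) for Fgfr4 and -2.35 log2 (± 0.30 SE, adjusted p = 0.00068) for Tcf21. Itga8, an integrin chain, differed by -2.4 log2 (± 0.20 SE, adjusted p = 6.3e-05), and Npnt, its matrix ligand nephronectin, by -1.43 log2 (± 0.23 SE, adjusted p = 0.0023). Cdo1, the cysteine dioxygenase, differed by -2.77 log2 (± 0.21 SE, adjusted p = 4e-05). Ces1d, a carboxylesterase, was uneven, at 5.7 and 8.18 log2 in bright cells, against 9.88 and 10.04 log2 in dim cells. Its difference of -3.02 log2 (± 0.88 SE, adjusted p = 0.04) lost the call with no filter (adjusted p = 0.052), in the 4 SHAM arrays alone (adjusted p = 0.073), without bright replicate 1 (-1.78 log2, adjusted p = 0.23), without dim replicate 1 (adjusted p = 0.12) and without dim replicate 2 (adjusted p = 0.14). Inmt, a methyltransferase, and Mfap4, a microfibril protein, were above 11.2 log2 on all 4 arrays and did not pass, though Inmt, at -0.33 log2, was called with a variance trend (adjusted p = 0.013).

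**Figure D3:**
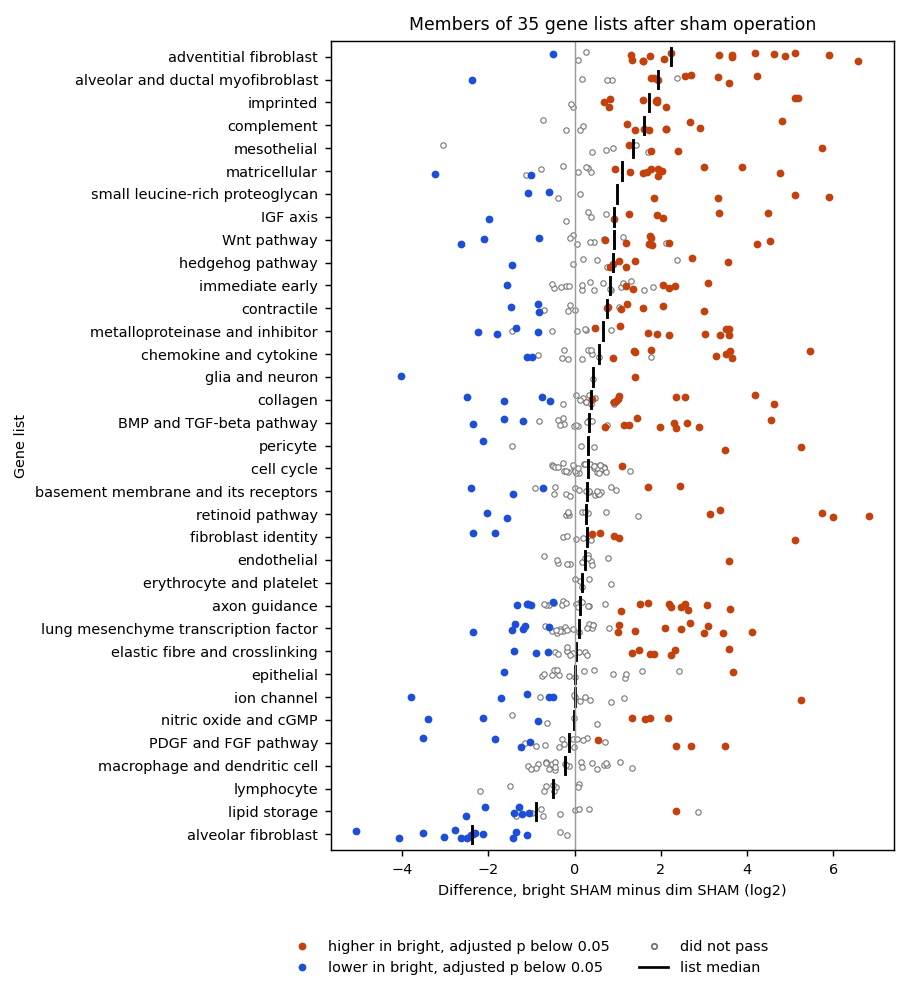
Differences of the tested members of 35 gene lists (bright SHAM minus dim SHAM, log2, horizontal axis), with lists ordered by their median (black bar). Orange points were called higher, blue points called lower, and open points did not pass. The adventitial list lies furthest right and the alveolar list furthest left, with medians of 2.24 and -2.37 log2. Lists were chosen with earlier results of these data known, so their positions are a description only.

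Genes of alveolar and ductal myofibroblasts, cells that contract at septal tips and duct mouths, were mostly higher in bright cells. Of 13 tested, 8 were higher and 1 lower, beside 11.5% and 7.53% of all genes. The median of 1.93 log2 became 1.04 log2 with raised levels. Aspn, the proteoglycan asporin, was at 7.06 and 6.78 log2 in bright cells, against 3.54 and 3.66 log2 in dim cells. The dim arrays of Aspn lay below the filter value, so the difference of 3.32 log2 (± 0.20 SE, adjusted p = 1.4e-05) became 1.82 log2 with raised levels. Ltbp2, a protein of elastic fibres, differed by 3.58 log2 (± 0.45 SE, adjusted p = 0.00062). Hhip, a membrane protein that binds hedgehog ligands and is bound up with duct myofibroblasts, was at 8.96 and 8.49 log2 in bright cells, against 6.92 and 5.79 log2 in dim cells. Its difference of 2.37 log2 (± 0.77 SE, adjusted p = 0.061) did not pass, but it was called with the stricter filter (adjusted p = 0.046), a variance trend (0.044), the mean of its probe sets (0.03) and the 4 SHAM arrays alone (0.024). Hsd11b1, which regenerates active glucocorticoid, was the lower member, at a difference of -2.37 log2 (± 0.29 SE, adjusted p = 0.00053). Cthrc1, a secreted protein of activated fibroblasts, was called, but its levels of 4.32 and 4.73 log2 in bright cells and 2.65 and 2.55 log2 in dim cells all lay below the filter value, and the call was lost with raised levels.

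Contractile genes were split. Of 15 tested, 7 were higher and 3 lower, beside 11.5% and 7.53% of all genes. The median was 0.74 log2, or 0 log2 with raised levels. Acta2, the smooth muscle actin, was at 9.36 and 8.14 log2 in bright cells, against 6.89 and 6.53 log2 in dim cells. The gates did not overlap, and the difference was 2.04 log2 (± 0.45 SE, adjusted p = 0.012). It lost the call without bright replicate 1 (1.44 log2, adjusted p = 0.078) and without dim replicate 2 (1.87 log2, adjusted p = 0.072). Myl9, a regulatory myosin light chain, was at 9.68 and 9.84 log2 in bright cells, against 6.72 and 6.81 log2 in dim cells (difference 2.99 log2 ± 0.22 SE, adjusted p = 3.5e-05). Tpm2, a tropomyosin, differed by 1.59 log2 (± 0.26 SE, adjusted p = 0.0029). Lower members were Vcl, which encodes the adhesion protein vinculin, at -1.48 log2 (± 0.23 SE, adjusted p = 0.0019), and Cnn2, a calponin, at -0.86 log2 (± 0.13 SE, adjusted p = 0.0014). Without bright replicate 1 the list had 3 higher and 2 lower members.

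Of 12 pericyte genes 6 were tested, and 2 were higher and 1 lower in bright cells, beside 11.5% and 7.53% of all genes. Kcnj8, the pore of an ATP-sensitive potassium channel, was at 8.28 and 8.41 log2 in bright cells, against 3.1 and 3.1 log2 in dim cells. Dim cells gave a level far below the filter value, so the difference of 5.24 log2 (± 0.15 SE, adjusted p = 1.6e-07) became 3.24 log2 with raised levels. Pdgfrb, the second PDGF receptor, was at 8.93 and 9.21 log2 in bright cells, against 5.51 and 5.66 log2 in dim cells (difference 3.49 log2 ± 0.25 SE, adjusted p = 2.9e-05). Pdgfrb and Pdgfra, the receptor pair, thus differed in opposite directions between the gates. Notch3, a receptor of mural cells, had levels of 5.49 to 5.98 log2 and did not pass, and Rgs5, Higd1b, Trpc6 and Mcam were below the filter. Cspg4 and Abcc9 had no probe set among those kept.

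Lipid storage genes were mostly lower in bright cells or did not pass. Of 16 tested, 1 was higher and 6 lower, beside 11.5% and 7.53% of all genes, with a median of -0.88 log2. Plin2, which coats lipid droplets, was at 9.29 and 9.19 log2 in bright cells, against 10.44 and 10.47 log2 in dim cells. The replicates were close and the gates apart, with a difference of -1.21 log2 (± 0.21 SE, adjusted p = 0.0038). Dgat2, which makes triglyceride, was at 5.88 and 5.95 log2 in bright cells, against 8.66 and 8.19 log2 in dim cells (difference -2.51 log2 ± 0.20 SE, adjusted p = 4.6e-05). G0s2, an inhibitor of lipolysis, differed by -2.08 log2 (± 0.22 SE, adjusted p = 0.00023), and Mgll, the monoglyceride lipase, by -1.29 log2 (± 0.21 SE, adjusted p = 0.0024). Both enzymes of storage and enzymes of breakdown were among the lower genes.

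Retinoid genes moved in both directions. Of 16 tested, 5 were higher and 2 lower, beside 11.5% and 7.53% of all genes. Aldh1a2, which makes retinoic acid, was at 9.55 and 9.49 log2 in bright cells, against 4.22 and 3.36 log2 in dim cells. Its difference was 5.73 log2 (± 0.49 SE, adjusted p = 7.3e-05), or 4.42 log2 with raised levels. Aldh1a3, a second enzyme of that step, differed by 3.37 log2 (± 0.38 SE, adjusted p = 0.00036). Aldh1a1, another such enzyme, was at 9.14 and 10.22 log2 in bright cells, against 11.07 and 11.41 log2 in dim cells. So the 3 retinaldehyde dehydrogenases did not share a direction, and the difference of -1.56 log2 for Aldh1a1 (± 0.31 SE, adjusted p = 0.0075) lost its call without dim replicate 2 (-1.39 log2, adjusted p = 0.055) and in the 4 SHAM arrays alone (adjusted p = 0.063), and was -1.02 log2 without bright replicate 1. Cyp1b1, a cytochrome P450 that also acts on retinoids, was at 10.19 and 9.65 log2 in bright cells, against 3.33 and 2.88 log2 in dim cells. It differed by 6.82 log2 (± 0.77 SE, adjusted p = 0.00035), by 4.82 log2 with raised levels and by 3.71 log2 as the mean of its 3 probe sets. Adh1, a retinol dehydrogenase, was at 11.83 to 12.11 log2 on all 4 arrays and did not pass.

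Collagen genes differed in both directions. Of 24 tested, 9 were higher and 4 lower, beside 11.5% and 7.53% of all genes, with a median of 0.39 log2. Col14a1, which decorates collagen fibrils, was at 11.31 and 11.34 log2 in bright cells, against 6.01 and 7.39 log2 in dim cells (difference 4.62 log2 ± 0.44 SE, adjusted p = 0.00015). Col15a1, a collagen of basement membrane zones, was at 10.13 and 10.23 log2 in bright cells, against 6.0 and 5.99 log2 in dim cells (difference 4.18 log2 ± 0.38 SE, adjusted p = 0.00012). Col13a1, a membrane collagen, was at 6.62 and 6.89 log2 in bright cells, against 9.21 and 9.3 log2 in dim cells (difference -2.5 log2 ± 0.35 SE, adjusted p = 0.0012). Without bright replicate 1, 8 collagens were called, and without dim replicate 1, 7 were.

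Elastic fibre and crosslinking genes gave 7 higher and 3 lower of 20, beside 11.5% and 7.53% of all genes. Eln, tropoelastin, was at 12.24 and 12.32 log2 in bright cells, against 11.98 and 12.12 log2 in dim cells, and did not pass (difference 0.23 log2, 95% confidence interval -0.11 to 0.57). Mfap2 and Mfap5, microfibril proteins, were higher in bright cells by 2.32 log2 (± 0.20 SE, adjusted p = 8e-05) and 2.24 log2 (± 0.19 SE, adjusted p = 6.7e-05). The crosslinking enzymes differed among themselves. Lox was at 9.35 and 9.31 log2 in bright cells, against 10.67 and 10.78 log2 in dim cells (difference -1.4 log2 ± 0.17 SE, adjusted p = 0.0006). Loxl2, a related lysyl oxidase, was at 7.62 and 7.2 log2 in bright cells, against 5.86 and 5.99 log2 in dim cells (difference 1.49 log2 ± 0.18 SE, adjusted p = 0.00051).

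Matricellular genes, whose products signal from the matrix, had 11 higher and 2 lower members of 20, beside 11.5% and 7.53% of all genes. Their median of 1.11 log2 became 0.34 log2 with raised levels. Cthrc1, with all 4 levels below the filter value, is among the higher members and lost its call with raised levels. Smoc2, a calcium-binding matrix protein, was at 8.72 and 8.72 log2 in bright cells, against 4.03 and 3.87 log2 in dim cells. Its difference was 4.77 log2 (± 0.25 SE, adjusted p = 5.7e-06), or 3.62 log2 with raised levels. Vcan, the large proteoglycan versican, differed by 3.87 log2 (± 0.42 SE, adjusted p = 0.00028), and all 5 of its probe sets were higher in bright cells. Ccn5, a member of the CCN family, was at 6.99 and 7.18 log2 in bright cells, against 10.21 and 10.41 log2 in dim cells (difference -3.23 log2 ± 0.30 SE, adjusted p = 0.00013). Of the small leucine-rich proteoglycans 8 were tested, of which 4 were higher and 2 lower, and Bgn, biglycan, stayed between 11.71 and 11.91 log2 and did not pass.

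Proteinases that act on matrix, and their inhibitors, had 10 higher and 4 lower members of 20, beside 11.5% and 7.53% of all genes. Mmp3, the proteinase stromelysin, was at 7.8 and 7.61 log2 in bright cells, against 3.72 and 4.51 log2 in dim cells. The difference was 3.59 log2 (± 0.41 SE, adjusted p = 0.00036), or 2.6 log2 with raised levels. Mmp23 differed by 3.36 log2 (± 0.27 SE, adjusted p = 6.1e-05), and Timp1, an inhibitor of metalloproteinases, by 2.19 log2 (± 0.33 SE, adjusted p = 0.0019). Adamts8 was lower, at a difference of -2.24 log2 (± 0.30 SE, adjusted p = 0.001), whereas Adamts5, an aggrecanase, was higher by 1.7 log2 (± 0.25 SE, adjusted p = 0.0016). Timp2 and Timp3, inhibitors with levels above 11.5 log2 on all 4 arrays, did not pass. Basement membrane and receptor genes had 2 higher and 3 lower of 22, near the 11.5% and 7.53% of all genes. Fewer were called without bright replicate 1 or without dim replicate 1. With a variance trend 5 were higher and 4 lower, and with the stricter filter 5 higher and 3 lower of 16. Lamc3, a laminin chain, was at 7.52 and 7.61 log2 in bright cells, against 5.0 and 5.23 log2 in dim cells (difference 2.45 log2 ± 0.17 SE, adjusted p = 2.4e-05).

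The PDGF and FGF genes had 4 higher and 4 lower members of 20, beside 11.5% and 7.53% of all genes. Among ligands, Fgf18, which is made by lung mesenchyme, was at 7.49 and 7.7 log2 in bright cells, against 5.36 and 4.42 log2 in dim cells (difference 2.71 log2 ± 0.33 SE, adjusted p = 0.00052). Fgf7, a growth factor for epithelium, was at 9.28 and 9.42 log2 in bright cells, against 9.54 and 9.64 log2 in dim cells, and did not pass. Among receptors, Fgfr2 was at 9.05 and 8.5 log2 in bright cells, against 8.45 and 7.69 log2 in dim cells. The gates of Fgfr2 came close, and its difference of 0.70 log2 (95% confidence interval -0.11 to 1.52) did not pass (adjusted p = 0.22). Fgfr1, at levels of 10.52 to 10.97 log2, did not pass. Pdgfrl, a protein with likeness to PDGF receptors, was higher by 2.35 log2 (± 0.20 SE, adjusted p = 8e-05). Spry4, a feedback inhibitor that FGF signals induce, was at 8.93 and 8.8 log2 in bright cells, against 9.94 and 10.28 log2 in dim cells (difference -1.24 log2 ± 0.16 SE, adjusted p = 0.00081).

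Hedgehog genes were mostly higher in bright cells, with 7 higher and 1 lower of 13, beside 11.5% and 7.53% of all genes. The median was 0.90 log2. Cdon, a coreceptor, was at 8.37 and 8.83 log2 in bright cells, against 5.16 and 4.93 log2 in dim cells (difference 3.56 log2 ± 0.18 SE, adjusted p = 5e-06). Gli1, a transcription factor that the pathway induces, was at 7.64 and 7.74 log2 in bright cells, against 5.3 and 4.62 log2 in dim cells (difference 2.73 log2 ± 0.35 SE, adjusted p = 0.00071). Both gates of Gli1 were apart by more than their replicates. Smo, the signal transducer, differed by 0.90 log2 (± 0.15 SE, adjusted p = 0.003), Gli2 by 1.18 log2 (± 0.19 SE, adjusted p = 0.0023) and the coreceptor Gas1 by 1.03 log2 (± 0.18 SE, adjusted p = 0.0041). Ptch1, the receptor and a target of the pathway, was at 8.61 and 8.6 log2 in bright cells, against 7.81 and 7.88 log2 in dim cells, and did not pass (adjusted p = 0.084), except in the fit of the 4 SHAM arrays alone (adjusted p = 0.033). Without bright replicate 1, bright replicate 2 or dim replicate 2, 5 members were called, all higher.

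Wnt genes had 9 higher and 3 lower members of 20, beside 11.5% and 7.53% of all genes. The median of the 20 was 0.92 log2, or 0.4 log2 with raised levels. With the stricter filter 4 were higher and 3 lower of 14. Among ligands, Wnt5a was at 8.54 and 8.49 log2 in bright cells, against 3.81 and 4.73 log2 in dim cells. Wnt2 ran the other way, at 7.32 and 7.12 log2 in bright cells, against 9.67 and 10.04 log2 in dim cells. The gates of both ligands were far apart, with differences of 4.24 log2 (± 0.34 SE, adjusted p = 4.9e-05) for Wnt5a, or 3.41 log2 with raised levels, and -2.63 log2 (± 0.23 SE, adjusted p = 9.6e-05) for Wnt2. Wnt2b was higher, by 2.18 log2 (± 0.34 SE, adjusted p = 0.002). Among inhibitors, Sfrp1, which binds Wnt ligands, was at 10.41 and 10.31 log2 in bright cells, against 6.03 and 5.61 log2 in dim cells (difference 4.54 log2 ± 0.55 SE, adjusted p = 0.00053). Notum, an enzyme that inactivates Wnt ligands, was at 4.95 and 5.18 log2 in bright cells, against 7.0 and 7.32 log2 in dim cells (difference -2.09 log2 ± 0.19 SE, adjusted p = 0.00012). Without dim replicate 2, 5 Wnt genes were called higher and 2 lower.

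BMP and TGF-beta genes had 10 higher and 3 lower members of 25, and 7 higher and none lower without bright replicate 1. Of all genes 11.5% were called higher and 7.53% lower. The called members named here were those with the smallest adjusted p, and all of them were higher. Gdf10, a secreted member of the family, was at 10.23 and 10.47 log2 in bright cells, against 5.92 and 5.67 log2 in dim cells (difference 4.56 log2 ± 0.43 SE, adjusted p = 0.00013). Tgfb3, a TGF-beta ligand, was at 10.27 and 10.19 log2 in bright cells, against 7.02 and 7.69 log2 in dim cells (difference 2.88 log2 ± 0.22 SE, adjusted p = 3.6e-05). Among inhibitors, Fst, follistatin, differed by 2.61 log2 (± 0.17 SE, adjusted p = 2.1e-05) and Fstl1 by 1.25 log2 (± 0.14 SE, adjusted p = 0.00032). Bmp1, a proteinase that releases matrix-bound ligands, was at 10.46 and 10.43 log2 in bright cells, against 8.69 and 7.59 log2 in dim cells (difference 2.31 log2 ± 0.32 SE, adjusted p = 0.0012). The receptors Tgfbr2 and Tgfbr3 showed levels between 9.95 and 10.43 log2 and did not pass.

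**Figure D4:**
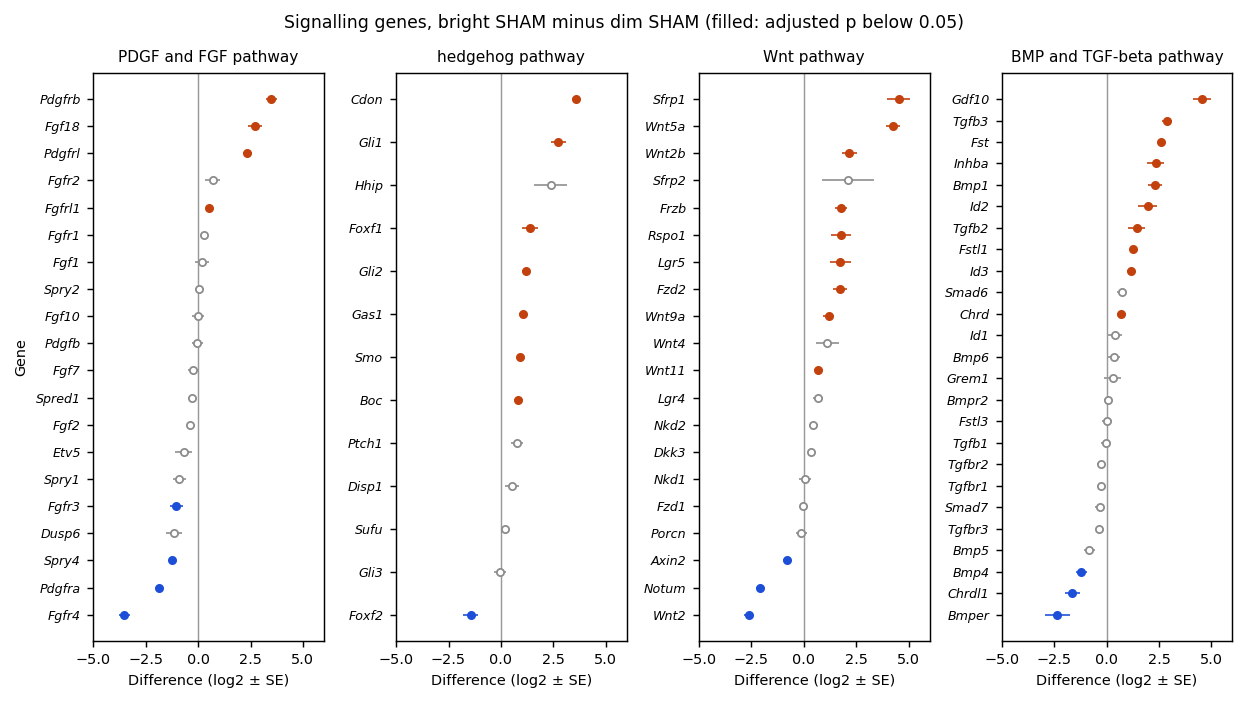
Differences (bright SHAM minus dim SHAM, log2, horizontal axes, with standard errors as lines) of the tested genes of 4 signalling lists, 1 panel each, ordered from highest to lowest. Filled orange points were called higher, filled blue points called lower, and open points did not pass. Pdgfrb and Fgfr4 stand at opposite ends of their list, as do Sfrp1 and Wnt2 of theirs.

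IGF genes had 6 higher and 1 lower of 11, beside 11.5% and 7.53% of all genes. Igfbp5, a binding protein of the factor, was at 9.11 and 9.34 log2 in bright cells, against 4.96 and 4.52 log2 in dim cells (difference 4.48 log2 ± 0.23 SE, adjusted p = 5e-06). Igfbp4 was at 11.71 and 11.75 log2 in bright cells, against 8.28 and 8.5 log2 in dim cells, and all 6 of its probe sets were higher in bright cells (difference 3.34 log2 ± 0.19 SE, adjusted p = 9.9e-06). Igf1, the ligand, was at 11.21 and 11.16 log2 in bright cells, against 10.39 and 10.15 log2 in dim cells (difference 0.92 log2 ± 0.14 SE, adjusted p = 0.0018). The receptor Igf1r did not pass, with levels of 8.54 to 8.91 log2. Pappa, a proteinase that cleaves Igfbp4, was higher by 2.05 log2 (± 0.25 SE, adjusted p = 0.00053), or 1.28 log2 as the mean of its 3 probe sets.

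Chemokine and cytokine genes had 9 higher and 2 lower members of 21, and 6 higher and 1 lower without bright replicate 2. Cxcl13, which attracts B cells, was at 11.54 and 10.80 log2 in bright cells, against 7.11 and 4.32 log2 in dim cells. The dim arrays of Cxcl13 were far apart, and its difference of 5.45 log2 (± 1.28 SE, adjusted p = 0.016) lost the call without bright replicate 1 (adjusted p = 0.084), bright replicate 2 (adjusted p = 0.056) or dim replicate 2 (4.06 log2, adjusted p = 0.11). Cxcl12, which holds haematopoietic cells, was at 7.98 and 7.57 log2 in bright cells, against 4.45 and 4.07 log2 in dim cells (difference 3.51 log2 ± 0.41 SE, adjusted p = 0.0004, or 2.67 log2 with raised levels). Il33, an alarmin, was at 6.91 and 6.56 log2 in bright cells, against 3.72 and 2.54 log2 in dim cells, so its difference of 3.6 log2 (± 0.40 SE, adjusted p = 0.00035) became 1.63 log2 with raised levels. Kitl, the ligand of the receptor Kit, was lower at -1.1 log2 (± 0.19 SE, adjusted p = 0.0041). Complement genes had 9 higher and none lower of 13, beside 11.5% and 7.53% of all genes. The 9 include Cfi, at 4.27 and 4.78 log2 in bright cells, against 2.34 and 2.48 log2 in dim cells. All 4 levels of Cfi lay below the filter value, and its call was lost with raised levels. C2, a protease of the classical pathway, was at 8.75 and 8.61 log2 in bright cells, against 5.55 and 6.0 log2 in dim cells (difference 2.91 log2 ± 0.27 SE, adjusted p = 0.00011). Cfb, factor B of the alternative pathway, differed by 2.11 log2 (± 0.28 SE, adjusted p = 0.00079), and C1ra by 1.6 log2 (± 0.18 SE, adjusted p = 0.00039). The inhibitor Serping1 was at 11.23 to 11.41 log2 on all 4 arrays and did not pass.

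Genes of cyclic GMP signalling had 4 higher and 3 lower members of 11, with 3 called without bright replicate 1 and 4 without dim replicate 1 or dim replicate 2. Of all genes 11.5% were called higher and 7.53% lower. The higher members included Npr1, at 1.74 log2 (± 0.40 SE, adjusted p = 0.016), and Npr3, at 1.64 log2 (± 0.33 SE, adjusted p = 0.0083). Pde1a was also higher, at 2.17 log2 (± 0.34 SE, adjusted p = 0.002), but lost its call with raised levels (0.70 log2, adjusted p = 0.082). Among the lower members, Prkg2, a cyclic GMP-dependent kinase, was at 6.08 and 6.77 log2 in bright cells, against 9.81 and 9.82 log2 in dim cells. Its difference was -3.39 log2 (± 0.23 SE, adjusted p = 2.3e-05). Gucy1b1, a subunit of the nitric oxide receptor, was at 5.53 and 4.91 log2 in bright cells, against 6.98 and 7.73 log2 in dim cells (difference -2.13 log2 ± 0.32 SE, adjusted p = 0.0016). Its partner Gucy1a1 was at 8.05 and 7.54 log2 in bright cells, against 9.13 and 9.37 log2 in dim cells, and missed the threshold (difference -1.45 log2, adjusted p = 0.055), but was called with 5 alternatives, among them the 4 SHAM arrays alone (adjusted p = 0.019) and the stricter filter (adjusted p = 0.042). Among ion channels 1 was higher and 5 lower of 14, beside 11.5% and 7.53% of all genes, and fewer were called without dim replicate 2. Scn3a, a sodium channel, was at 5.07 and 5.01 log2 in bright cells, against 8.65 and 9.0 log2 in dim cells (difference -3.79 log2 ± 0.17 SE, adjusted p = 2.4e-06), or -2.36 log2 as the mean of its 2 probe sets. Cacna1d, a calcium channel, differed by -1.71 log2 (± 0.31 SE, adjusted p = 0.0049).

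Axon guidance genes, whose products also steer vessels and airways, had 10 higher and 5 lower of 29, beside 11.5% and 7.53% of all genes. Sema3c, a secreted semaphorin, was at 9.68 and 9.42 log2 in bright cells, against 6.75 and 6.23 log2 in dim cells (difference 3.06 log2 ± 0.35 SE, adjusted p = 0.00036). Efna5, an ephrin, differed by 2.63 log2 (± 0.24 SE, adjusted p = 0.0001) and Ntn1, a netrin, by 2.57 log2 (± 0.31 SE, adjusted p = 0.00053). Nrp1, a semaphorin coreceptor, had levels of 10.21 to 10.85 log2 and did not pass.

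Transcription factors of lung mesenchyme had 10 higher and 6 lower members of 33, beside 11.5% and 7.53% of all genes. Fewer of either kind were called without bright replicate 2. Twist2, a basic helix-loop-helix factor, was at 8.01 and 8.77 log2 in bright cells, against 4.21 and 4.34 log2 in dim cells. Its difference was 4.11 log2 (± 0.26 SE, adjusted p = 2.1e-05), or 3.29 log2 with raised levels. Osr1, a zinc finger factor, was at 9.39 and 9.8 log2 in bright cells, against 6.95 and 6.9 log2 in dim cells (difference 2.68 log2 ± 0.21 SE, adjusted p = 4.5e-05). Prrx2, a homeobox factor, differed by 3.43 log2 (± 0.25 SE, adjusted p = 3.5e-05), or 2.82 log2 with raised levels, and Ebf1 by 2.99 log2 (± 0.26 SE, adjusted p = 8.6e-05), or 2.32 log2. Foxf2, a forkhead factor, was lower at -1.45 log2 (± 0.35 SE, adjusted p = 0.018) but was not called without bright replicate 1 (adjusted p = 0.051), bright replicate 2 or dim replicate 2 (adjusted p = 0.1 in each). Zeb2 and Nr2f2 showed levels above 9.9 log2 on all 4 arrays and did not pass.

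Imprinted genes, which are transcribed from 1 parental copy, had 10 higher and none lower of 12, and 6 higher without dim replicate 1. Of all genes 11.5% were called higher and 7.53% lower. The median difference of the list was 1.74 log2, or 0.96 log2 with raised levels. Meg3, a noncoding RNA, was at 9.87 and 10.20 log2 in bright cells, against 4.65 and 5.18 log2 in dim cells. All 10 of its probe sets were higher in bright cells, and the one used differed by 5.12 log2 (± 0.40 SE, adjusted p = 4.6e-05), against 2.65 log2 for their mean. Rian, a noncoding RNA of the same locus, was at 8.43 and 8.69 log2 in bright cells, against 3.27 and 3.49 log2 in dim cells. Its difference of 5.18 log2 (± 0.33 SE, adjusted p = 2.1e-05) was 3.46 log2 with raised levels and 3.4 log2 as the mean of its 4 probe sets. Cdkn1c, a cell cycle inhibitor, differed by 1.88 log2 (± 0.26 SE, adjusted p = 0.0012), and Plagl1, a zinc finger factor, by 2.12 log2 (± 0.33 SE, adjusted p = 0.002). Sgce and Grb10 did not pass.

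Cell cycle genes showed 1 call in 32, with 3 at an unadjusted p below 0.05. Mki67, a marker of cycling cells, was at 6.2 and 5.82 log2 in bright cells, against 5.89 and 3.57 log2 in dim cells, and did not pass (difference 1.28 log2, 95% confidence interval -0.25 to 2.81, or 0.51 log2 with raised levels). The dim arrays of Mki67 were far apart, and without dim replicate 1 its difference was 2.44 log2 (adjusted p = 0.022). The 1 call, Mcm6 of the replication helicase, had a difference of 1.11 log2 (± 0.31 SE, adjusted p = 0.033) and was not called without any 1 of the 4 arrays (adjusted p of 0.051 to 0.19) or with raised levels (0.59 log2, adjusted p = 0.18). Without dim replicate 1, 2 cell cycle genes were called, as with the mean of probe sets, and without any other array, or with the stricter filter, 0 were.

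Immediate early genes, which cells induce within minutes of stress or growth signals, had 6 higher and 1 lower of 24. Of all genes 11.5% were called higher and 7.53% lower. Nr4a1, an orphan nuclear receptor, was at 7.83 and 8.32 log2 in bright cells, against 5.38 and 6.13 log2 in dim cells (difference 2.32 log2 ± 0.37 SE, adjusted p = 0.0024). Klf4, a zinc finger factor, differed by 3.09 log2 (± 0.38 SE, adjusted p = 0.00058). Fosb was at 11.22 and 11.57 log2 in bright cells, against 9.62 and 9.93 log2 in dim cells, and missed the threshold (difference 1.62 log2, adjusted p = 0.055), but was called with the stricter filter (adjusted p = 0.041), a variance trend (0.036) and the 4 SHAM arrays alone (0.011). Gadd45b, a stress gene, was lower at -1.56 log2 (± 0.26 SE, adjusted p = 0.0031). How digestion and sorting bear on these genes was not tested.

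Some genes on lists of other cell types differed between the gates. Pdpn, which encodes podoplanin of type I cells and of fibroblasts, was at 9.15 and 9.04 log2 in bright cells, against 5.27 and 5.58 log2 in dim cells (difference 3.67 log2 ± 0.19 SE, adjusted p = 5e-06). Hopx, a homeobox protein of type I cells, was at 7.73 and 8.14 log2 in bright cells, against 9.62 and 9.54 log2 in dim cells (difference -1.64 log2 ± 0.23 SE, adjusted p = 0.0012). The 2 epithelial genes that were called thus ran in opposite directions. Tek, the angiopoietin receptor, was the 1 endothelial gene called of 13 (difference 3.59 log2 ± 0.33 SE, adjusted p = 0.00012, or 2.6 log2 with raised levels), while Pecam1, of endothelial junctions, was at 6.6 and 6.54 log2 in bright cells, against 5.63 and 6.86 log2 in dim cells. Between 2 and 3 were called with no filter, the stricter filter, a variance trend, raised levels or the 4 SHAM arrays alone. The endothelial markers summed to 11.30 and 11.31 log2 on the bright arrays and 11.33 to 11.55 log2 on the dim arrays. Of 10 mesothelial genes 4 were higher, beside 11.5% of all genes, among them Aldh1a2 and Nkain4 (difference 2.39 log2 ± 0.40 SE, adjusted p = 0.003). Another of them, Rspo1, was at 5.28 and 5.22 log2 in bright cells, against 3.63 and 3.36 log2 in dim cells. Its call was lost with raised levels (0.15 log2, adjusted p = 0.85). Upk1b, a uroplakin on the same list, was lower at -3.05 log2 but did not pass. The summed level of the list was 11.90 to 12.13 log2 on the bright and 11.37 to 11.47 log2 on the dim arrays. Msln, mesothelin, lay below the filter, and Upk3b, a mesothelial uroplakin, was at 7.39 and 4.46 log2 on the bright arrays, against 4.49 and 4.51 log2 on the dim arrays (chosen after its values were seen). The part of mesothelial cells in these differences was not tested. Of 3 genes of glia and neurons tested, Ngfr and Mapt were called, in opposite directions, and Ngfr (difference 1.4 log2, adjusted p = 0.025) was not called without bright replicate 1 (0.82 log2, adjusted p = 0.14), dim replicate 1 (adjusted p = 0.066) or dim replicate 2 (adjusted p = 0.12), with the mean of probe sets (1.09 log2, adjusted p = 0.064) or in the 4 SHAM arrays alone (adjusted p = 0.091).

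The difference between the gates was also measured after pneumonectomy, on the other 8 arrays, but the fit takes its spread from all 12 arrays, so calls in 2 conditions are not independent. After PNX 2042 genes were called between bright and dim cells (18.4%), and 1473 genes were called in the same direction in both, which is 69.9% of the SHAM calls and 72.1% of the PNX calls. After PNX-dnFGFR 3812 genes were called (34.4%), with 1718 shared in direction, 81.5% of the SHAM calls and 45.1% of the PNX-dnFGFR calls. No gene was called in opposite directions in SHAM and PNX, and 1 was in SHAM and PNX-dnFGFR. There were 281 genes called in SHAM alone, but a call in 1 condition and none in another is no test of a difference. Across the 11073 genes, as a description with no arrays in common, the differences correlated at r = 0.859 between SHAM and PNX and at r = 0.807 between SHAM and PNX-dnFGFR. Slc7a10 differed by -5.06 log2 in SHAM, -5.55 log2 in PNX and -6.44 log2 in PNX-dnFGFR, and Rbp4 by 5.98, 5.91 and 5.01 log2. Genes lower in bright cells were 7.07% of all in PNX and 13.5% in PNX-dnFGFR, and genes higher were 11.4% and 21%. All 16 alveolar fibroblast genes tested were called lower in PNX and in PNX-dnFGFR, beside 14 in SHAM. The adventitial list had 16 higher members in PNX and 14 in PNX-dnFGFR, beside 16 in SHAM.

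A test of the difference between conditions called few genes. For SHAM less PNX limma called 0 of 11073 genes (0%), with 495 at an unadjusted p below 0.05 and a smallest adjusted p of 0.17. For SHAM less PNX-dnFGFR it called 14 (0.126%), 3 where the bright minus dim difference was higher in SHAM and 11 where it was lower. Of 32 cell cycle genes 13 were called higher in bright cells in PNX and 29 in PNX-dnFGFR, beside 1 in SHAM. Of all genes 11.4% were called higher in PNX, 21% in PNX-dnFGFR and 11.5% in SHAM. The counts on the cell cycle list are no test of a difference between conditions. Birc5, the survivin that cells make at mitosis, is on that list and differed between conditions, with a gap of -2.86 log2 (± 0.31 SE, adjusted p = 0.031) for SHAM less PNX-dnFGFR, a call lost without bright replicate 1, bright replicate 2 or dim replicate 1. Saa3 had levels of 12.30 and 10.16 log2 in bright and 11.39 and 8.34 log2 in dim PNX cells, and 12.34 and 12.08 log2 in bright and 11.14 and 9.55 log2 in dim PNX-dnFGFR cells. Of the 12 arrays the 2 dim SHAM arrays alone had Saa3 below the filter value, but the gap of 5.55 log2 between SHAM and PNX did not pass (± 1.37 SE, adjusted p = 0.89), nor did that of 5.05 log2 between SHAM and PNX-dnFGFR (± 1.37 SE, adjusted p = 0.2).

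**Figure D5:**
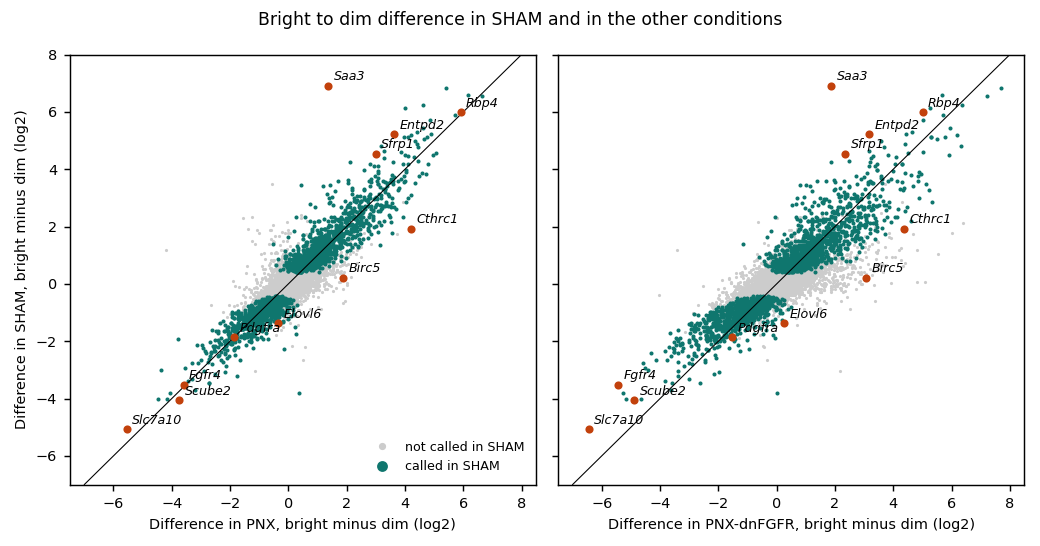
Bright minus dim difference in SHAM (log2, vertical axes) against that in PNX (left panel) and in PNX-dnFGFR (right panel) for 11073 genes. Green points were called in SHAM, grey points were not, orange points are named genes, and the diagonal marks equal differences. Slc7a10, Fgfr4 and Rbp4 lie near the line in PNX, Saa3 lies above it, and Birc5 and Cthrc1 lie below it in both panels.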

How the data were processed

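Expression was measured on 12 Affymetrix arrays in 6 groups of 2, of which the 4 SHAM arrays are described. The authors deposited log2 signals. They name RMA, per the submitters' processing notes, with no version in the sources used here. RMA normally includes quantile normalization, and the array medians lay between 5.062 and 5.128 log2. Values were used as deposited.

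Of 45141 probe sets 104 controls were left out. Probe sets with 1 gene in the array's annotation (28898) were kept, those with several (551) or none (15588) were not, and symbols of 28689 annotated probe sets were updated by Entrez identifier. Each of 17097 genes was read from its brightest probe set on average over 12 arrays. A gene needed a level above 5.101 log2 on 2 arrays, and 6024 genes were below that.

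limma 3.58.1 (R 4.3.3) fitted 1 mean per group over all 12 arrays, with 6 residual and 3.31 prior degrees of freedom, and p-values of its moderated test were adjusted over all genes (Benjamini-Hochberg). All adjusted p-values are from limma. The residual standard deviation had a median of 0.199 log2, and precision is limited by how few arrays there were. All arrays entered as independent samples.

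The members, gene lists and tests were chosen with earlier results of these data known. Genes were named by a rule: the 12 largest rises and falls among calls without overlap, with levels below the filter raised to it and predicted genes left out, the 10 largest of each with all 4 arrays above the filter, per list up to 6 called members by adjusted p and up to 2 with the highest level that did not pass, up to 6 per difference of effects, and Pdgfra, Pdgfrb, Fgfr2, Fgfr4, Acta2, Plin2, Col1a1, Eln, Tcf21 and Mki67. Members that lists name only to say that they lie below the filter, or that no probe set of theirs was kept, are outside it. List counts have no set test. Summed levels are log2 of summed linear signals. Alternatives changed the filter (none, or 6.762 log2), normalized by quantiles again, averaged probe sets per gene, fitted a variance trend, used the 4 SHAM arrays alone, blocked on replicate number, raised low levels, or left out a SHAM array. Promoters are RefSeq's on GRCm38.p6.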

Additional observations from a re-analysis of the deposited data

Results flagged for a closer look

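In 7 of the genes named, the bright minus dim difference in SHAM was set apart from that in PNX-dnFGFR by a test of the difference itself. None of the 7 kept its call in every alternative tried, and the fit with the replicate block ended the call in all 7 (adjusted p of 0.051 to 0.073). Groups held 2 arrays, too few for a test of outlying samples.

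In 2 of the 7 the difference was higher in SHAM. Entpd2, the ectoenzyme that splits ATP, differed by 5.23 log2 between bright and dim cells in SHAM and by 3.17 log2 in PNX-dnFGFR, a gap of 2.06 log2 (± 0.22 SE, adjusted p = 0.031). Its call was lost without bright replicate 1 (adjusted p = 0.082) and without bright replicate 2 (adjusted p = 0.15). Serpina3n, a serine protease inhibitor of the acute phase, was at 10.36 and 10.32 log2 in bright SHAM cells, against 7.92 and 8.06 log2 in dim SHAM cells. In PNX-dnFGFR it was at 11.57 and 11.17 log2 in bright cells, against 11.61 and 11.23 log2 in dim cells. Dim SHAM cells were thus the low ones, and the gap was 2.40 log2 (± 0.29 SE, adjusted p = 0.043), with a call lost without any 1 SHAM array (adjusted p of 0.066 to 0.18).

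In the other 5 the difference was lower in SHAM. Birc5, of dividing cells, differed by 0.22 log2 in SHAM and by 3.07 log2 in PNX-dnFGFR (gap -2.86 log2 ± 0.31 SE, adjusted p = 0.031). Without bright replicate 1, dim replicate 1 or bright replicate 2 the adjusted p was 0.082, 0.11 and 0.15. Stmn2, a neuronal stathmin, differed by -0.07 log2 in SHAM and by 2.38 log2 in PNX-dnFGFR (gap -2.44 log2 ± 0.32 SE, adjusted p = 0.043), and lost its call without any 1 SHAM array (adjusted p of 0.075 to 0.18) and, at -2.01 log2, when its probe sets were averaged (adjusted p = 0.084). Sema4a, a membrane semaphorin, differed by -0.59 log2 in SHAM and by 2.20 log2 in PNX-dnFGFR (gap -2.79 log2 ± 0.37 SE, adjusted p = 0.043), with an adjusted p of 0.097 without bright replicate 1 and 0.18 without bright replicate 2. Elovl6, which lengthens fatty acids, differed by -1.37 log2 in SHAM and by 0.26 log2 in PNX-dnFGFR (gap -1.63 log2 ± 0.22 SE, adjusted p = 0.043). It lost its call without any 1 SHAM array (adjusted p of 0.062 to 0.18) and when its probe sets were averaged (-1.06 log2, adjusted p = 0.11). Cthrc1, of activated fibroblasts, differed by 1.93 log2 in SHAM, where all 4 levels were below the filter value, and by 4.37 log2 in PNX-dnFGFR (gap -2.45 log2 ± 0.34 SE, adjusted p = 0.043). Its adjusted p was 0.078 to 0.18 without 1 SHAM array and 0.052 with no filter.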

How the results depend on the processing

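The count of 2107 genes between bright and dim SHAM cells was 1229 to 1584 when 1 array was left out, which leaves fewer arrays, and between 1423 (only the 4 SHAM arrays) and 2296 (variance trend) elsewhere. No named gene changed sign while called. For SHAM less PNX the count of 0 became 1 with the mean of probe sets, 1 with the replicate block and 0 to 1 without an array. For SHAM less PNX-dnFGFR the count of 14 became 8 with no filter, 22 with the stricter filter, 32 with a variance trend, 2 with the replicate block, 35 with raised levels and 0 to 6 without an array. The cause was not tested. Deviations of like-numbered bright and dim arrays correlated across genes at 0.005 for SHAM, at 0.003 for PNX and at 0.128 for PNX-dnFGFR. A correlation over all genes cannot tell whether like-numbered arrays came from the same lungs, since single genes can still vary together. The fit with the replicate block called 1792 genes between bright and dim SHAM cells, among them Hhip (adjusted p = 0.0015) and Fosb (adjusted p = 0.0057) but not Mcm6 (adjusted p = 0.057) or Col1a1 (adjusted p = 0.11), and it called 4 of 12 general fibroblast genes and 1 macrophage and dendritic cell marker.

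With 2 arrays per gate, a difference rests on few samples, and signals near background bound the size of 288 of the 1273 rises, whose dim arrays both lay below the filter value, and of 95 of the 834 falls.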

Other observations

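Upk1b, a uroplakin on the mesothelial list, was at 7.66 and 7.56 log2 in bright SHAM cells, against 10.66 and 10.67 log2 in dim SHAM cells. The replicates of each gate lay close together, yet the difference of -3.05 log2 (± 1.71 SE, adjusted p = 0.26) did not pass in the fit that shares its spread with the other 8 arrays. It passed in the fit on the 4 SHAM arrays alone (adjusted p = 0.0012) and with the replicate block (adjusted p = 0.0039).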
